A study of Mus musculus with 18 samples.

Results

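RNA was sequenced from mesenchymal-enriched cells (MC), sorted as negative for CD31 and Kit from the aorta-gonad-mesonephros (AGM) of day 11 mouse embryos, after the AGM had been cultured as an explant with or without cyclopamine. Cyclopamine is a plant alkaloid that binds Smoothened, the membrane protein that passes the Hedgehog signal into the cell. The comparison takes 4 of the 18 libraries of the series: 2 from MC of explants with cyclopamine (BRE-GFP negative and BRE-GFP positive) against 2 from MC of explants without it, chosen by the sample titles and paired by BRE-GFP fraction. All animals were of a C57BL6 strain with the BRE-GFP reporter, whose green fluorescent protein is driven by an element that responds to BMP, and cells were sorted on it into negative and positive fractions. Both kinds of explant, the controls included, were cultured under conditions with BMP and Hedgehog. The same fractions of MC from fresh, uncultured AGM (2 libraries) are given for reference, and the matching libraries of endothelial-enriched cells (EC, CD31 positive and Kit negative) and of the CD31 and Kit positive cells that hold hematopoietic stem and progenitor cells (HPSC) for comparison. The sources used here do not give the dose, duration and vehicle of the treatment or the number of embryos behind a library. Each combination of population, culture and fraction has 1 library, so p-values measure only the spread between these libraries, which may be technical. Values below are negative fraction first, in CPM (a gene's counts scaled to the size of its library, with TMM factors).

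In Hedgehog signalling, a secreted ligand binds Patched, which releases Smoothened and lets the GLI transcription factors turn on their targets. Ptch1 and Hhip, which restrain the signal, and Gli1, which carries it forward, are themselves targets and serve as readouts. In the embryonic trunk the ligands come from notochord, floor plate and gut, and mesenchyme is the tissue that responds, among other things by forming smooth muscle and cartilage.

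The libraries carried the transcripts of mesenchyme along with those of red blood cells. The summed level of 7 mesenchymal markers was 4038 and 5864 CPM in explant MC and 5146 and 7413 CPM in cyclopamine MC. That of 6 red cell markers was 14898 and 27360 CPM in explant MC and 2797.5 and 2877 CPM in cyclopamine MC. Pecam1, which encodes CD31, lay between 6.56 and 11.1 CPM. The sum of 7 endothelial markers, Pecam1 included, was 62.4 and 118 against 66.3 and 68.9 CPM. Kit transcripts were present despite the gate, at 126 and 20.3 CPM without and 194 and 85.5 CPM with cyclopamine. Gene counts ran from 14479053 to 21972063 in the 4 libraries, against 16142766 in fresh MC negative and 4547062 in fresh MC positive. The cyclopamine libraries had fewer reads at no annotated feature, 33.0 and 31.2% against 46.8 and 45.5% in the explant libraries, and fewer genes with at least 1 count, 16842 and 17118 against 18561 and 18816. This difference moved with the culture throughout, and its part in the results was not tested.

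No gene passed the main test. The edgeR quasi-likelihood fit of the 6 MC libraries had fraction as a block. In it, 0 of 15849 tested genes (0.0%) had an adjusted p under 0.05. At an unadjusted p under 0.05 there were 476 (3.0%), fewer than that cutoff would give with no effect. DESeq2 called 11 and limma-voom 0, and DESeq2 gave no adjusted p for 8296 of the genes. The common biological coefficient of variation is the spread of a gene's level between libraries beyond counting error. In the edgeR fit it was 0.65, with 2 residual degrees of freedom. In the fit of the 4 explant and cyclopamine libraries alone it was 0.30, with 1 residual degree of freedom, and 1241 genes passed: 824 higher (5.2% of those tested) and 417 lower (2.63%) with cyclopamine. All 1241 had the same direction in both fractions. The residual of this fit is the disagreement between the 2 pairs, so genes with opposite directions could hardly be called. The shared direction is therefore no support for the calls. Without the fresh negative or the fresh positive library, 1159 and 1696 genes passed, whereas leaving any 1 of the 4 cultured libraries out of the 6 left 0 to 7. When only 1 fresh library is left, its own culture term fits it exactly. The fits without a fresh library therefore rest on the residual of the 4 cultured libraries and are no separate support. In the main fit, the difference between the fresh fractions also enters the residual. Of all tested genes, 5720 (36.1%) were higher and 5437 (34.3%) lower in both fractions, and the log2 ratios of the 2 pairs had a Spearman correlation of 0.57 across 11113 genes, which share 1 processing and are not independent. Below, "called" refers to the fit of the 4 libraries, whose fold changes are given as log2 values with the SE of the fit, and no called gene passed the main test. Medians over lists and length bins come from the fit of the 6 libraries unless stated. Counts within lists are to be read beside the shares of all tested genes given above.

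**Figure D1:**
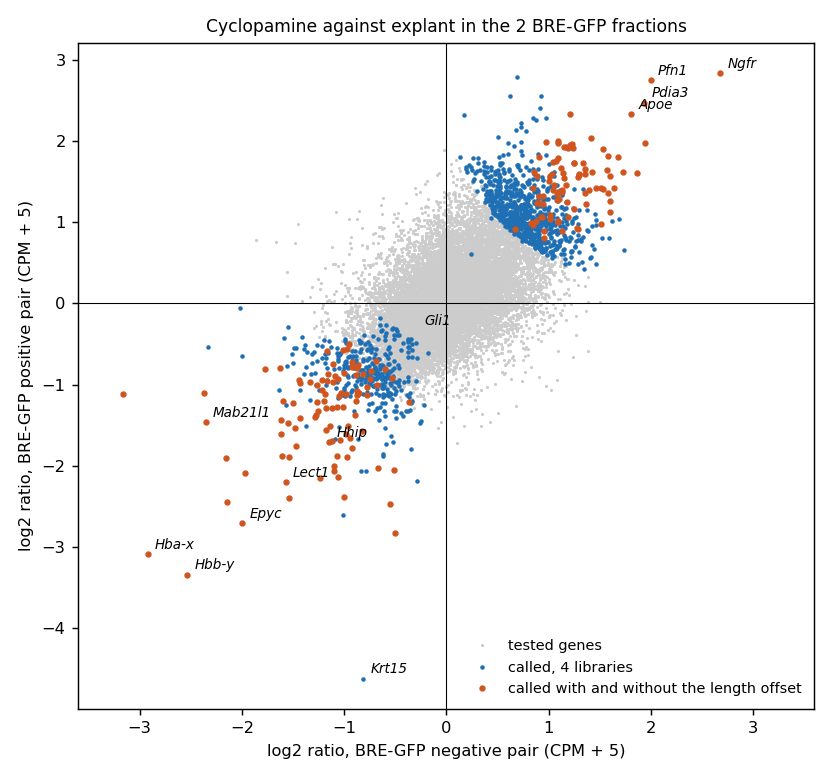
Each point is 1 tested gene, with the log2 ratio of cyclopamine to explant (CPM + 5) in the BRE-GFP negative pair on the x axis and in the positive pair on the y axis. Called genes are blue, or orange where also called with the length offset, and lie in the upper right and lower left, with Ngfr and Pfn1 at the upper and the globins Hba-x and Hbb-y at the lower end, while Gli1 lies among the genes that were not called.

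Fold changes ran with transcript length. In the 1568 genes with the shortest transcripts (median 1037 bases) the median log2 fold change was -0.47, and in the 1568 with the longest (median 8290 bases) it was 0.43. The longest held 245 of the genes called higher and 30 of those called lower, the shortest 9 and 70. Both fractions showed the trend, with Spearman correlations of length and log2 ratio across 11023 genes of 0.29 in the negative and 0.49 in the positive pair, whereas the correlation was -0.10 for the fitted effect in EC and -0.17 in HPSC. The correlation with the GC content of transcripts was 0.06. With an offset for transcript length in the fit of the 4 libraries, added after this was seen, 207 genes were called, 89 higher (0.568% of 15677 genes with a length) and 118 lower (0.753%). Of these, 182 were called in the same direction without the offset. The offset also removes any true difference that runs with length, so both counts are given for the lists described. Adjusted p was also higher in the offset fit where estimate and SE hardly changed. Pfn1 had log2 2.46 ± 0.27 (edgeR adjusted p = 3e-06) without and 2.57 ± 0.24 (adjusted p = 0.0081) with the offset. A call lost with the offset is therefore not by itself a sign that the change ran with length.

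**Figure D2:**
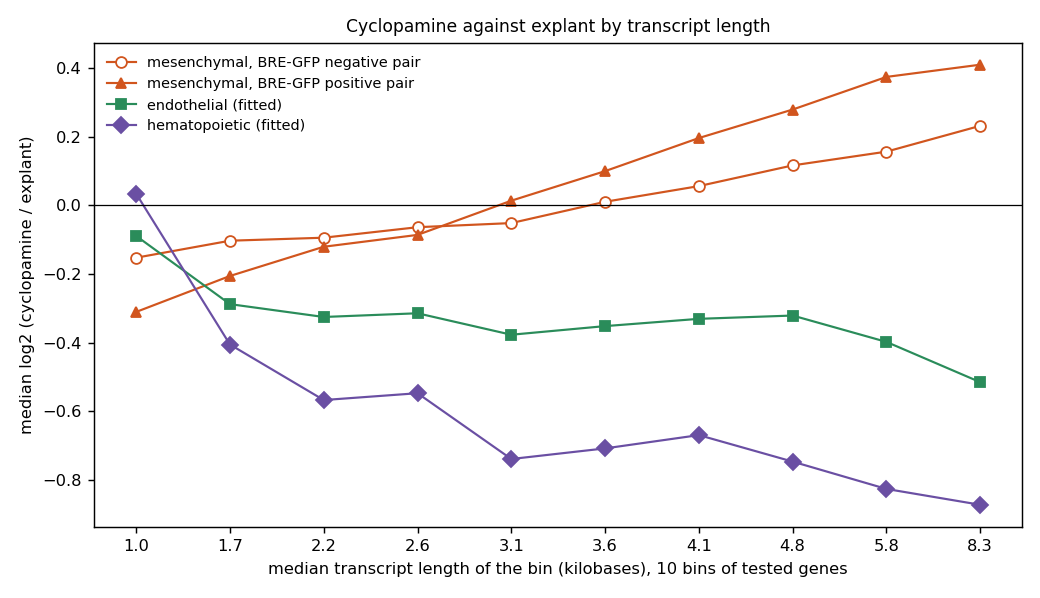
Tested genes are split into 10 bins by transcript length (x axis, median length in kilobases), and the y axis gives the median log2 of cyclopamine over explant, for the 2 MC pairs and for the fitted effects in EC and HPSC. Both MC lines climb from below 0 to above 0, and the EC and HPSC lines do not.

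The receptors and inhibitors at the head of the Hedgehog pathway did not move as a block. Ptch1, the receptor (chr13:63508328-63573598), stood at 42.0 and 12.5 CPM without and 32.4 and 27.3 CPM with cyclopamine (log2 0.33 ± 0.32, adjusted p = 0.54). The groups overlapped, and the fractions went opposite ways. Hhip, a membrane protein that captures the ligand (chr8:79965851-80058006), stood at 39.4 and 29.9 against 15.1 and 5.66 CPM. It was called lower with and without the length offset (log2 -1.92 ± 0.32, adjusted p = 0.00062, and 0.032 with the offset). Without the explant positive library, the fit of the MC libraries put Hhip at a log2 fold change of 0.56. The explant negative library that was left still stood above both cyclopamine libraries. The fraction term of that fit rests on the fresh and cyclopamine libraries. In fresh MC, Hhip stood at 31.9 and 0 CPM, where 3 counts would be 0.62 CPM. The coreceptor gene Boc was called higher (22.8 and 26.7 against 45.6 and 51.3 CPM, log2 0.93 ± 0.26, adjusted p = 0.029), though not with the offset (adjusted p = 0.16). Its relatives Cdon (14.0 and 17.3 against 25.8 and 28.2 CPM) and Gas1 (62.0 and 82.3 against 101 and 101 CPM) were also higher in both fractions and were not called.

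No fall was called for the transducer or the transcription factors. Smo, the target of cyclopamine (chr6:29735503-29761365), stood at 34.4 and 25.5 CPM without and 45.2 and 37.1 CPM with it (log2 0.43 ± 0.26, adjusted p = 0.30). Gli1, the most widely used readout of the pathway (chr10:127329882-127341974), stood at 33.3 and 27.1 against 26.3 and 20.5 CPM. It was lower in both fractions by a small step, without overlap of the groups, and was not called (log2 -0.41 ± 0.28, adjusted p = 0.36). Gli2, the main activator, stood at 24.5 and 26.0 against 37.2 and 39.9 CPM and was not called. Gli3, which acts mostly as a repressor in the absence of signal, was called higher (107 and 56.8 against 149 and 145 CPM, log2 0.88 ± 0.26, adjusted p = 0.037, and 0.28 with the length offset). Sufu, which holds GLI proteins in the cytoplasm, stood at 1.91 and 2.16 against 6.11 and 7.89 CPM (adjusted p = 0.079). Among ligands, Shh and Ihh stayed at or below 2.48 CPM in these 4 libraries, and Dhh was too low to test.

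Among the downstream genes, 1 transcription factor and 1 secreted factor were called lower. Foxf2, a forkhead factor of gut and trunk mesenchyme, stood at 23.6 and 12.004 against 8.46 and 0.333 CPM (log2 -2.94 ± 0.57, adjusted p = 0.0026, and 0.10 with the offset). Its relative Foxl1 stood at 10.7 and 6.41 against 2.72 and 2.47 CPM and missed the threshold (adjusted p = 0.054). Cxcl14, a chemokine, was called lower (11.9 and 9.64 against 4.84 and 1.85 CPM, log2 -1.86 ± 0.50, adjusted p = 0.024, and 0.11 with the offset). Ccnd2, a cyclin of the G1 phase, stood at 1764 and 1221 against 889.7 and 1044 CPM and was called lower with the length offset only (adjusted p = 0.084 without and 0.032 with it). Mycn, a MYC family transcription factor, stood at 26.6 and 15.04 against 15.4 and 9.08 CPM and was not called. Target transcription factors also lay higher, such as Osr1 (13.5 and 14.4 against 20.3 and 30.4 CPM) and Foxd1 (3.69 and 10.9 against 11.5 and 14.6 CPM), which were not called either. Over all tested genes, 5.2% were called higher and 2.63% lower, and with the offset 0.568% and 0.753%. In both fractions, 36.1% were higher and 34.3% lower. Of the 29 tested Hedgehog target genes, 1 was called higher and 3 lower, with the offset 0 and 2, and 10 were higher and 13 lower in both fractions. Their median log2 fold change was 0.07 in the fit of 6 libraries, -0.05 with RLE scaling and -0.21 with the length offset, against 0.02 and -0.10 over all tested genes without and with the offset. RLE scaling moved all genes by a median of -0.12. The target list also holds the coreceptor genes Boc, Cdon and Gas1, and Boc was its member called higher. The list was not split by whether the signal raises or lowers a gene. Its counts and median therefore give no reading of pathway activity. Of 28 tested pathway components, 5 (Gli3, Prkaca, Scube1, Iqce and Evc) were called higher and 0 lower, with a median of 0.36 against 0.22 for all genes of the same length bins. None of the 5 was called with the offset.

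**Figure D3:**
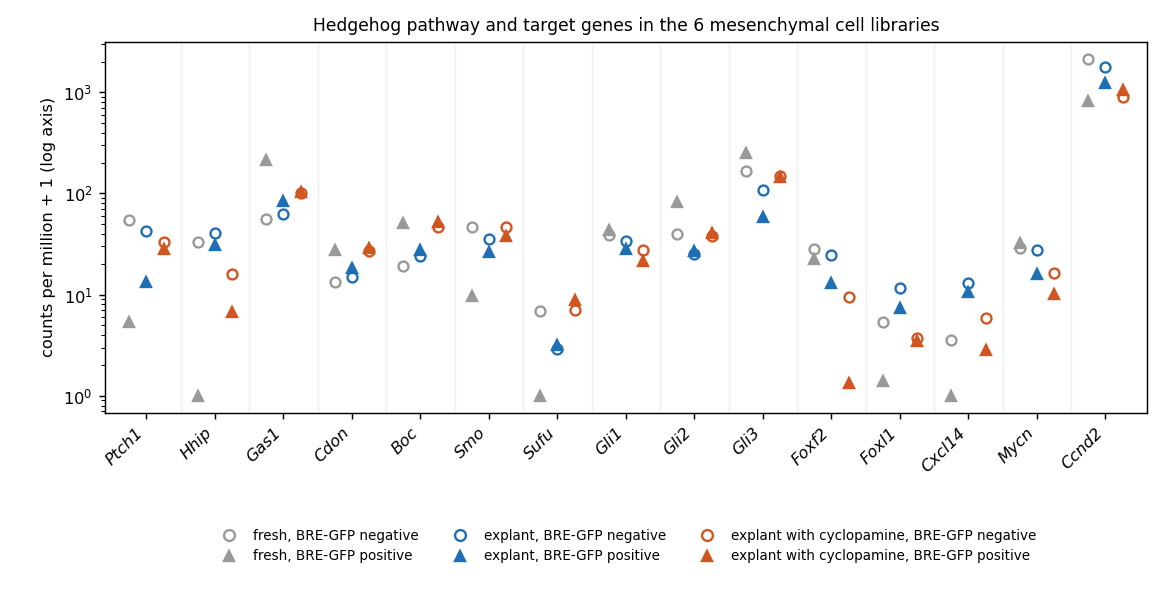
The y axis gives CPM + 1 on a log axis for 15 Hedgehog pathway and target genes (x axis) in the 6 MC libraries, with grey for fresh, blue for explant and orange for cyclopamine, circles for the BRE-GFP negative and triangles for the positive fraction. Hhip, Foxf2 and Cxcl14 show the orange symbols below the blue ones in both fractions, and for Ptch1 they overlap.

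The promoters of these genes are shown for the sequence that GLI proteins are known to prefer. Of the Hedgehog targets, 18 have an entry in the RefSeq promoter table (GRCm38.p6, a window that runs from upstream of the start to just past it). The 7 letters ACCACCC, searched on both strands, were found in 1 of the 18 and in 4.61% of all 32851 promoters. Capitals mark the match, which lies 234 bases before the start of Pax1 on the other strand. Pax1, a factor of the sclerotome, stood at 10.6 and 8.36 against 6.11 and 7.61 CPM and was not called, and Hhip, which was called, holds no such letters in this window.
Hhip, chr8:80057959-80058258, minus strand: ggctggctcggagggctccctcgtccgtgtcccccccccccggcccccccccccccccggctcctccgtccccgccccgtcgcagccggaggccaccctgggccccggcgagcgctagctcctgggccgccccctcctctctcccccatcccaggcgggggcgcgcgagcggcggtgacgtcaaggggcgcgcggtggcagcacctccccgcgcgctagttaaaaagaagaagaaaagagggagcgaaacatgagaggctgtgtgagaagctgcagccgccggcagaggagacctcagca
Pax1, chr2:147364744-147365043, plus strand: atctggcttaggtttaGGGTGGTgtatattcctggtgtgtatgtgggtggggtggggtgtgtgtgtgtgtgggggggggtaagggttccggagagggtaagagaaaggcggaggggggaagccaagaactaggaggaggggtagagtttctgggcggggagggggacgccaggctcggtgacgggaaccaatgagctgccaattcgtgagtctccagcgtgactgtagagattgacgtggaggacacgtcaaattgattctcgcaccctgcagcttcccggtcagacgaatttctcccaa

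Of the 44 gene lists examined, that of cartilage and bone held the most genes called lower. Lect1, also named Cnmd, which encodes chondromodulin of the cartilage matrix (chr14:79637690-79662170), stood at 1266 and 2493 CPM in explant MC and at 422 and 536 CPM in cyclopamine MC. It was called lower (log2 -1.94 ± 0.24, adjusted p = 2.1e-05, and 0.0084 with the length offset). Chad, a leucine-rich matrix protein that binds chondrocytes, stood at 198 and 318 against 81.2 and 67.4 CPM (log2 -1.80 ± 0.27, adjusted p = 0.00022). Epyc, a proteoglycan of growth cartilage that belongs to no list here, stood at 125 and 236 against 27.6 and 31.8 CPM (log2 -2.57 ± 0.27, adjusted p = 2.4e-06). In all 3, both cyclopamine libraries lay below both explant libraries. The fresh libraries were lower still for Lect1, at 61.2 and 47.5 CPM, and held Epyc at 8.15 and 0.826 CPM.

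Sox9, the master regulator of chondrocytes (chr11:112782224-112787760), stood at 289 and 305 against 149.6 and 174 CPM and was called lower with and without the offset (log2 -0.92 ± 0.24, adjusted p = 0.019 and 0.031). Its best known target, Col2a1, the main collagen of cartilage, stood at 568 and 858 against 392 and 449.5 CPM (log2 -0.77 ± 0.23, adjusted p = 0.042). The matrilins Matn1 (113 and 206 against 55.5 and 68.9 CPM) and Matn3 (44.4 and 60.3 against 21.5 and 20.2 CPM), the link protein gene Hapln1 (638 and 749.8 against 379 and 390.2 CPM), Col9a2 and the growth-plate gene Ucma (9.22 and 23.1 against 2.24 and 2.52 CPM) were also called lower. Ibsp, bone sialoprotein, stood at 2.94 and 16.1 against 0 and 0.143 CPM, the last from 3 counts. Matn4 went the other way, from 1.78 and 2.02 to 9.43 and 22.6 CPM (log2 2.92 ± 0.47, adjusted p = 0.0005). Of 21 tested cartilage and bone genes, 1 was called higher and 10 lower, and with the length offset 1 and 9. The list's median was -0.84, or -1.13 with the offset, where all genes of the same length bins had a median of 0.08, and 16 members were lower and 3 higher in both fractions.

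Globin transcripts, which belong to primitive red blood cells, fell in both fractions. Hbb-y, an embryonic beta globin, stood at 12161 and 23981 CPM without and 2094 and 2358 CPM with cyclopamine (log2 -2.98 ± 0.23, adjusted p = 1.1e-08, and 0.00093 with the offset). Hba-x, the embryonic alpha globin, stood at 1894 and 2520.5 against 245 and 291 CPM, and Hbb-bh1 at 369.8 and 431 against 79.1 and 111 CPM. In all 3, both cyclopamine libraries lay below both explant libraries, and all 3 were called with and without the offset. Not all erythroid genes shared it: Alas2, for heme synthesis, was called lower (323 and 355 against 209 and 94.8 CPM), Slc4a1, the anion exchanger of the red cell membrane, stood at 66.1 and 29.1 against 104 and 25.1 CPM, and Gata1, the erythroid factor, at 43.0 and 16.2 against 61.6 and 8.61 CPM. Tfrc, the transferrin receptor, was called higher. Of 15 tested erythroid genes, 1 was called higher and 4 lower, and with the offset only the 3 globins, lower. The summed level of 6 red cell markers was 14898 and 27360 CPM without and 2797.5 and 2877 CPM with cyclopamine. What this takes from the CPM of other genes was not tested. MC were gated without an erythroid marker in the labels, and in bulk RNA fewer cells of a type and less RNA per cell cannot be told apart. Some globin genes are close in sequence to one another, so counts are uncertain where reads could be placed at more than 1 of them. In fresh MC, Hbb-y stood at 17726 and 349.7 CPM, a wider gap between fractions than between the cultures.

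**Figure D4:**
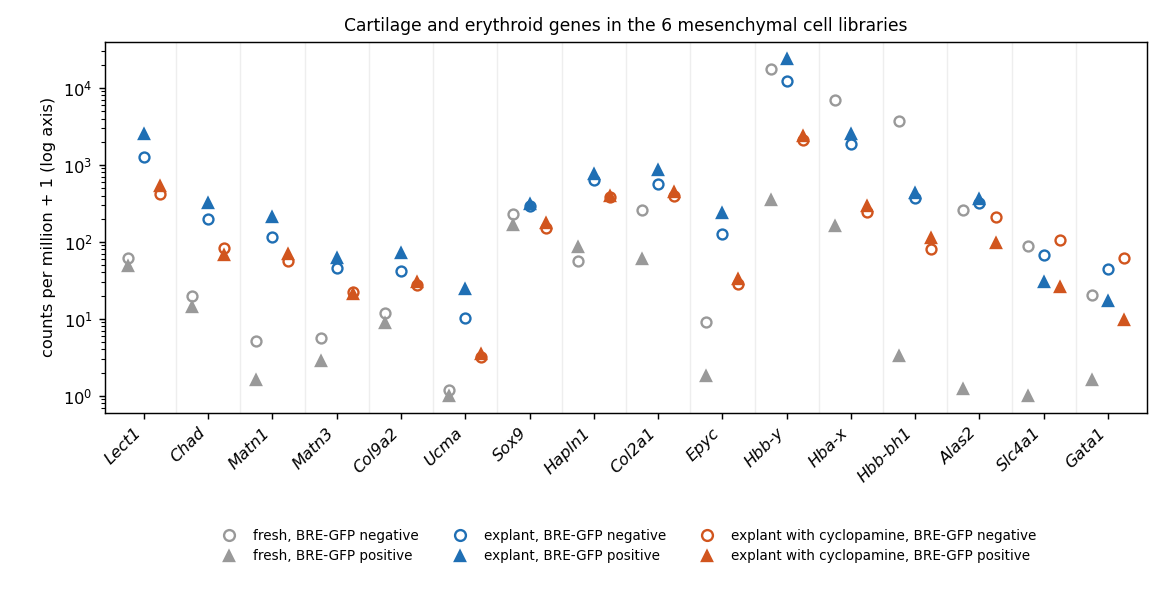
The y axis gives CPM + 1 on a log axis for 10 cartilage and 6 erythroid genes (x axis) in the 6 MC libraries, with colours for culture and symbols for BRE-GFP fraction. Orange symbols (cyclopamine) lie below blue ones (explant) for Lect1, Chad, Epyc and the globins, while Slc4a1 and Gata1 overlap.

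The promoters of 2 globins that moved together are shown for letters known from red cell genes, searched on both strands and marked by capitals. Words of the GATA site were AGATAA as well as its variant AGATAG, and with another first letter TGATAA as well as its variant TGATAG. The other words were CACCC of the Kruppel-like factors, CCAAT of the box upstream of many starts, and TATAAA of the TATA box. Over all promoters of the table, 29.8% hold one of the GATA words, 57.5% CACCC, 37.4% CCAAT and 13.6% TATAAA. Hba-x holds GATA words 234 and 108, CACCC 198 and 95 and TATAAA 28 bases before its start. Hbb-y holds a GATA word 162, CACCC 111 and CCAAT 83 bases before its start. Hbb-bh1 has no entry in the table.
Hba-x, chr11:32276350-32276649, plus strand: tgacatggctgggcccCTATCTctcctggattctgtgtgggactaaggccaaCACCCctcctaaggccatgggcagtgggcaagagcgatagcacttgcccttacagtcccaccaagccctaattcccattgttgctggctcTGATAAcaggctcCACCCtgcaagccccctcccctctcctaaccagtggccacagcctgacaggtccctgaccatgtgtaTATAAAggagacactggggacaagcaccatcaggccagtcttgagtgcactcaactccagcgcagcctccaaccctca
Hbb-y, chr7:103853158-103853457, minus strand: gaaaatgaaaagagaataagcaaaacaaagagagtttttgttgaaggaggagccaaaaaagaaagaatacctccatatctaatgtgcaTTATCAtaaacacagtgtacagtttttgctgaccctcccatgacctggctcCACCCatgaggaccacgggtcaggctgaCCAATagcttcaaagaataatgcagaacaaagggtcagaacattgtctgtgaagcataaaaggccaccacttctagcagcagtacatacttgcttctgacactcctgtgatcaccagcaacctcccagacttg

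The genes higher in both fractions with the lowest p included a growth factor receptor and several genes of basic metabolism and secretion. Ngfr, the low-affinity nerve growth factor receptor and a marker of neural crest and of stromal progenitors (chr11:95568818-95587735), stood at 6.83 and 4.99 CPM in explant MC and at 70.7 and 66.7 CPM in cyclopamine MC. This was the largest fold change among the 12 (log2 3.51 ± 0.29, adjusted p = 3.3e-08, and 0.0026 with the length offset), and fresh MC held 16.0 and 19.8 CPM. Pfn1, which encodes the actin monomer-binding protein profilin (chr11:70651850-70654644), stood at 60.4 and 39.5 against 257 and 295 CPM, with 349.6 and 243 CPM in fresh MC (log2 2.46 ± 0.27, adjusted p = 3e-06). Pdia3, a disulfide isomerase of the endoplasmic reticulum, stood at 262 and 193 against 1017 and 1098 CPM, with 1157 and 443 CPM in fresh MC (log2 2.20 ± 0.24). In all 3, the explant libraries were the low ones among the 6.

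Idh2, a mitochondrial isocitrate dehydrogenase, stood at 90.2 and 71.9 against 299.6 and 263 CPM, and Aldh2, a mitochondrial aldehyde dehydrogenase, at 13.2 and 13.2 against 49.2 and 58.9 CPM. Itm2b stood at 114 and 112 against 299.6 and 366 CPM, and Atp1b2, a subunit of the sodium pump, at 11.7 and 16.3 against 59.2 and 78.5 CPM. Dnmt1, the maintenance DNA methyltransferase, stood at 161 and 96.6 against 368 and 381 CPM, and the basement membrane gene Nid2 at 31.1 and 48.6 against 104 and 154 CPM. The groups stood apart in each of these 6. The 12 genes named higher and the 12 named lower were all called, and 22 of the 24 were also called with the length offset, the exceptions being Crabp2 and Mia1. A shared direction in both fractions was part of how the 24 were chosen, so these counts are no support for them.

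Among the 12 named lower, besides Lect1 and Chad, were genes of patterning, of Wnt inhibition and of the cell surface. Mab21l1, a gene of embryonic patterning, stood at 285 and 157 against 51.6 and 53.5 CPM (log2 -2.04 ± 0.27, adjusted p = 4.3e-05). Frzb, a secreted Wnt antagonist of cartilage, stood at 80.3 and 35.1 against 11.4 and 13.7 CPM (log2 -2.12 ± 0.31, adjusted p = 0.00021). Another secreted Wnt antagonist, Wif1, was also called lower (55.3 and 52.7 against 17.2 and 24.965 CPM). Crabp2, which carries retinoic acid in the cell, stood at 205 and 175 against 65.7 and 70.7 CPM. Unc5b, a netrin receptor, stood at 54.0 and 82.1 against 21.1 and 30.7 CPM. Anxa1 (118 and 338 against 37.1 and 59.8 CPM), Cd9 (123 and 289.9 against 62.5 and 80.8 CPM), Upk1b (40.1 and 143 against 16.0 and 30.2 CPM) and Mia1 (102 and 232 against 54.0 and 69.8 CPM) had in common that the explant positive library was the highest of the 4.

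Some contractile genes of smooth muscle were called lower and others were not. Tagln, which encodes SM22, stood at 80.5 and 269 against 43.2 and 87.0 CPM (log2 -1.30 ± 0.26, adjusted p = 0.0032), with overlap of the groups across fractions. Actg2 stood at 182 and 154 against 58.8 and 52.2 CPM (log2 -1.63 ± 0.25, adjusted p = 0.00025), Cnn1 at 18.99 and 17.2 against 4.11 and 7.13 CPM, and Acta2 at 672 and 1067 against 433 and 581 CPM. Of 21 tested smooth muscle and pericyte genes, 6 were called lower (these, Myl9 and Mylk) and 3 higher, of which 3 lower and 0 higher with the offset. The 3 higher were Pdgfrb (293 and 226 against 449.7 and 592 CPM) and the potassium channel subunit gene Abcc9, both marks of pericytes, and Des. The list's median was -0.12, or -0.18 in the fit of 4 libraries, against 0.08 for all genes of its length bins. Among contractile genes that were not called, Tpm2, a tropomyosin, stood at 96.3 and 139.8 against 109 and 160.2 CPM and Cald1, caldesmon, at 329 and 383 against 336 and 380.2 CPM. Myocd, the coactivator of smooth muscle genes, stood at 7.72 and 7.69 against 18.3 and 12.03 CPM and was not called.

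Several fibroblast and matrix genes were called higher, most of them with long transcripts. Pdgfra stood at 454 and 222 against 754 and 899 CPM (log2 1.34 ± 0.27, adjusted p = 0.0032), Col3a1 at 499 and 652 against 901 and 1355 CPM and Col1a2 at 617 and 844 against 1037 and 1442 CPM. Of 29 mesenchymal genes, 7 were called higher and 1, Nt5e, lower, and 6 were lower in both fractions. Among the abundant ones, the proteoglycan genes Dcn (1135 and 1930.0 against 958 and 1477 CPM) and Lum (839 and 1613 against 675 and 1035 CPM) lay lower in both and were not called. Of 35 matrix genes, 4 were called higher (Fn1, Vcan, Lamb1 and Nid2) and 2 lower (Col2a1 and Mgp). With the length offset, 0 of the mesenchymal and 1 of the matrix genes, Nid2, were called higher, and Nt5e and Col2a1 lower. Medians were 0.32 and 0.50 for the 2 lists, and 0.09 and 0.10 with the offset. Guidance receptors and ligands, with a median transcript of 6525.5 bases, showed the same: 11 of 28 were called higher, among them Slit2 (40.1 and 35.3 against 88.9 and 105 CPM), Unc5c and Plxna1, and with the offset 1, Sema5a (121 and 95.2 against 318 and 297 CPM). Efna1, with a short transcript, was called lower without the offset only (77.0 and 97.0 against 52.5 and 35.8 CPM).

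Of the IGF axis and imprinted growth genes, several were called higher with and without the length offset. Igfbp5, a binding protein of IGF (chr1:72857932-72874884), stood at 503 and 527 against 1678 and 1633 CPM (log2 1.65 ± 0.23, adjusted p = 7.7e-05, and 0.029 with the offset). Grb10, an imprinted adaptor of the insulin and IGF receptors, stood at 685 and 677 against 1564 and 2563 CPM, and Mest, another imprinted gene, at 421 and 492 against 905 and 1004 CPM. Peg10 (18.5 and 20.8 against 59.7 and 64.3 CPM), Peg3, Igfbp3 and Igf1 (589 and 519 against 962 and 1344 CPM) were called too. Of 22 tested genes, 7 were called higher and 0 lower, and with the offset 5 higher and 1 lower, Sgce. The median was 0.46, against 0.26 for all genes of the same length bins, and 0.33 with the offset. Igf2 itself stood at 565 and 1216 against 679 and 993 CPM and overlapped, as did H19.

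Genes of sterol efflux were called in 1 direction. Apoe, the apolipoprotein that carries cholesterol out of cells (chr7:19696109-19699188), stood at 5.53 and 9.10 against 31.9 and 66.0 CPM, with 28.01 and 60.9 CPM in fresh MC (log2 2.66 ± 0.30, adjusted p = 4.3e-06, and 0.0079 with the offset). Abca1, Scd2 (1303 and 617 against 1881 and 1826 CPM) and Npc1 were called higher without the offset only. Of 14 tested genes of the LXR and sterol efflux list, 4 were called higher and 0 lower. Cholesterol synthesis genes had a median of 0.05, with 2 of 23 called higher (Insig1 and Srebf2) and 0 lower, and none with the offset. Fasn, for fatty acid synthesis, was called higher with and without the offset (50.9 and 32.5 against 161 and 112 CPM).

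In the lists of protein folding stress and of inflammation, genes were called in 1 direction, lower. Pdia3, the disulfide isomerase of the endoplasmic reticulum named above as higher, is not in the stress list. Of 26 tested genes of the unfolded protein and integrated stress responses, 0 were called higher and 8 lower, 18 were lower in both fractions, and the median was -0.42 against -0.19 in the same length bins. Among the 8, Ddit3, which encodes CHOP, stood at 113 and 129 against 73.1 and 52.3 CPM, Mthfd2 at 433 and 436 against 282 and 171 CPM and Pdia6 at 3098 and 3469.7 against 1853 and 1950.0 CPM. Only Pdia6 was called with the offset. Hspa5, the most abundant chaperone of the endoplasmic reticulum, stood at 2606 and 2432 against 2312 and 2277 CPM and was not called. The chemokine Ccl2 stood at 48.4 and 158 against 12.4 and 48.2 CPM (log2 -1.87 ± 0.25, adjusted p = 7.5e-05, and 0.031 with the offset), lower within each fraction while the negative explant and positive cyclopamine values were alike. Of 23 tested inflammatory genes, 3 were called lower (Ccl2, Ccl7 and Hmox1) and 0 higher, with a median of -0.74, and with the offset only Ccl2. Of 25 glycolysis and hypoxia genes, 4 were called lower, including Bnip3 (123 and 162 against 64.4 and 67.6 CPM), and 1, Hk1, higher, and with the offset 2 lower (Bnip3 and Hk2) and 0 higher.

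Of 25 tested targets of BMP, on whose reporter the fractions were sorted, 1 was called higher and 1 lower, where 5.2% and 2.63% of all tested genes were. Id1 stood at 43.4 and 57.7 against 54.7 and 52.6 CPM, Id2 at 869 and 974 against 724 and 665 CPM and Id3 at 349 and 493 against 392 and 499 CPM. All 3 are direct targets of BMP-activated SMADs, and none was called. Among the targets, Hey1 was called higher (5.81 and 6.002 against 16.7 and 17.7 CPM) and Dlx5 lower (20.6 and 12.1 against 4.59 and 7.80 CPM), both without the offset only. The list's median was -0.26, or -0.41 in the fit of 4 libraries, and -0.43 with the length offset. Bmp4, a ligand made by mesenchyme under the aorta, stood at 64.9 and 57.2 against 49.1 and 27.8 CPM (adjusted p = 0.072). Of 32 ligands, antagonists, receptors and SMADs, Bmpr1b, Acvr2a and Smad5 were called higher and Acvrl1 lower, and 0 with the offset. The TGF-beta receptors Tgfbr1 (90.9 and 61.4 against 187 and 172 CPM) and Tgfbr2 were called higher among 5 of 21 genes of that list, with 0 lower and 0 with the offset.

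Immediate early genes are switched on within minutes of a stimulus or of tissue handling. In the list of immediate early and heat shock genes, 15 of 25 were higher in both fractions, where 36.1% of all tested genes were. Ier2 stood at 8.26 and 10.3 against 22.3 and 35.4 CPM (log2 1.57 ± 0.31, adjusted p = 0.0032) and Nr4a1 at 52.6 and 102 against 102 and 246 CPM, both called also with the offset. Egr1, Egr2, Fosb and Zfp36 were called without it, and Fos (431 and 837 against 664 and 1403 CPM) missed the threshold (adjusted p = 0.073). In all, 6 were called higher and 0 lower. Of 31 cell cycle genes, 3 were called higher and 0 lower: Mki67 (177 and 112 against 369.7 and 229.9 CPM), Bub1 (40.7 and 35.3 against 95.3 and 102 CPM) and Mcm6 (130.04 and 57.5 against 283 and 247 CPM), the last 2 also with the offset. The list's median was 0.13. Nuclear genes of the respiratory chain, with short transcripts, had a median of -0.35 against -0.30 in their length bins, and 17 of 24 were lower in both fractions, with 1, Cox5a, called higher.

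Factors by which mesenchyme is known to support hematopoietic stem cells gave mixed values. Kitl, the ligand of Kit, was called higher (82.6 and 44.8 against 147 and 134 CPM, log2 1.17 ± 0.26, adjusted p = 0.0068, and 0.092 with the offset). Cxcl12 stood at 144 and 140.5 against 144 and 238 CPM, Spp1 at 25.1 and 112 against 54.0 and 108 CPM and Ptn at 454 and 730.1 against 432 and 683 CPM, none of them called. Wnt5a stood at 325 and 233 against 174 and 181 CPM and was called lower with the offset only. Of 21 tested niche factors, 3 were called higher (Kitl, Igfbp3 and Scube1) and 1 lower, Wnt3a, which had 0 counts in both cyclopamine libraries, where 3 counts would be 0.181 and 0.143 CPM, and 2.32 and 2.63 CPM in the explant libraries.

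Markers of other cell types moved with the treatment in part. Myog, a skeletal muscle regulator, stood at 54.3 and 84.4 against 132 and 342 CPM and was called higher with and without the offset, as 1 of 4 called of 23 muscle genes (with Actc1, Tnnt2 and Ttn, which were not called with the offset). The summed level of 4 muscle markers was 285 and 569 CPM without and 416 and 1181 CPM with cyclopamine. The neurofilament genes Nefl (25.7 and 30.1 against 76.0 and 87.3 CPM) and Nefm were among 5 of 26 neuronal genes called higher, and were the 2 called with the offset, while 0 of 23 sympathoadrenal genes were called in either direction. Of 18 granulocyte and mast cell genes, 4 were called lower, 0 with the offset, and all 4 were highest in the explant negative library, such as Ngp at 88.2 and 12.4 against 39.8 and 1.05 CPM. The steroid enzyme gene Hsd3b6 stood at 47.2 and 52.3 against 6.83 and 5.47 CPM (log2 -3.06 ± 0.30, adjusted p = 8.9e-07, and 0.0079 with the offset), whereas its relative Hsd3b1 stood at 40.1 and 42.4 against 51.0 and 19.9 CPM. The endothelial list had 1 of 17 genes called, Flt1, lower, and none with the offset. The summed level of 7 endothelial markers was 62.4 and 118 CPM without and 66.3 and 68.9 CPM with cyclopamine, and that of 4 macrophage markers 48.8 and 44.3 against 27.9 and 53.1 CPM. The part of such cells in the mesenchymal results was not tested.

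**Figure D5:**
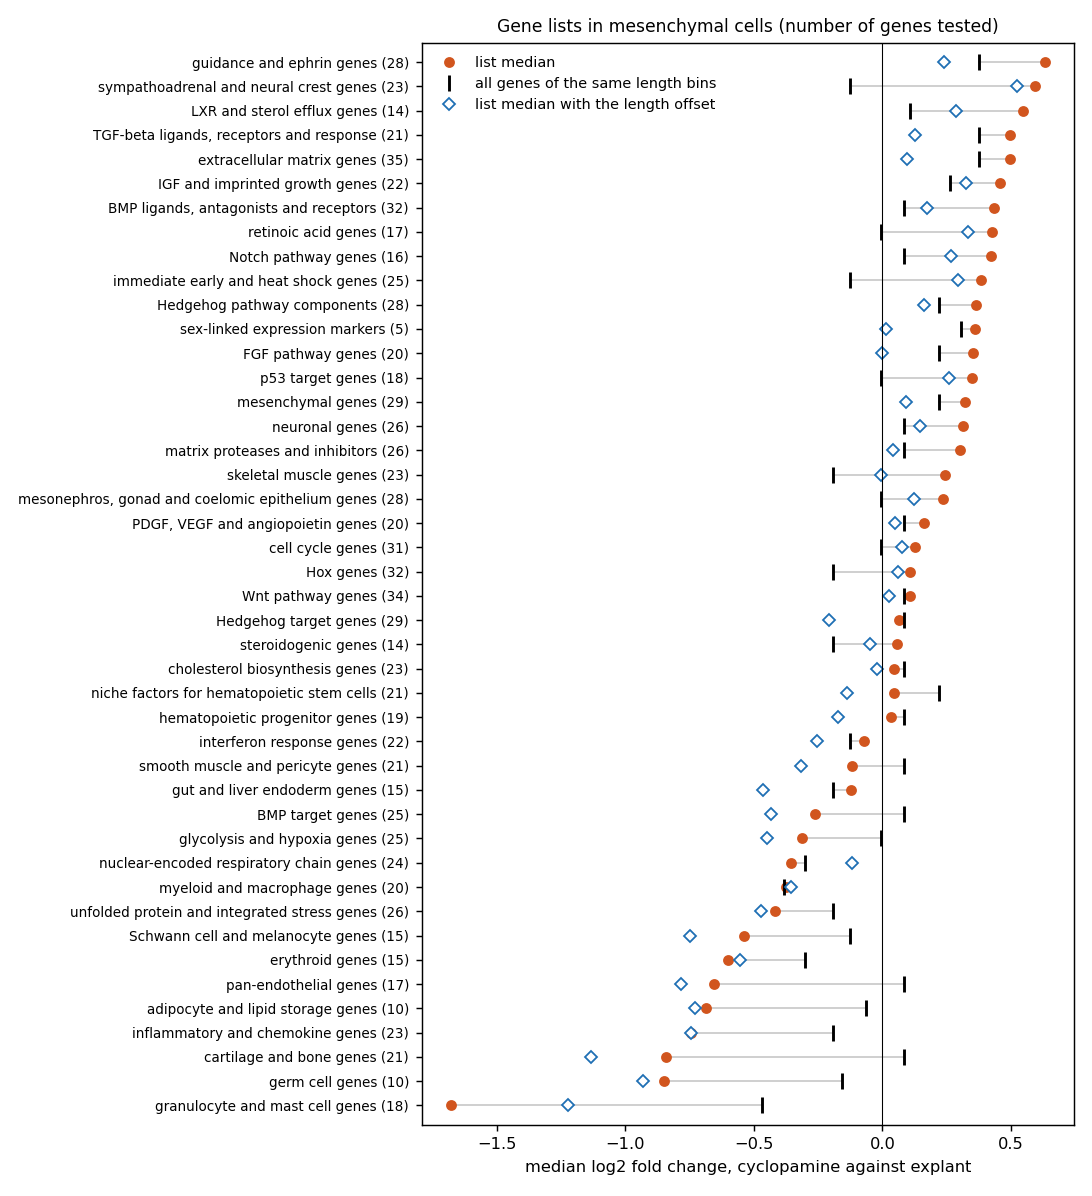
Each row is a gene list with the number of genes tested, and the x axis gives the median log2 fold change of cyclopamine over explant in the fit of the 6 MC libraries (orange), the same with the length offset (blue) and the median for all genes in the same length bins (black). Cartilage genes lie at -0.84 and -1.13 with a black mark at 0.08, and the matrix list lies at 0.50 and at 0.10 with the offset.

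Within a single fraction, no test was possible, and the genes with the largest log2 ratios of CPM + 5 overlapped in part. Ngfr, Pfn1 and Pdia3 were among the 6 highest, and Hba-x and Hbb-y among the 6 lowest, of each pair. In the negative pair alone the named genes were Atp1b2, Apoe and Prrc2a (7.24 against 39.4 CPM) on the higher side. On the lower side they were Adamdec1 (87.8 against 5.32 CPM), Frzb, Mab21l1 and Tbx5, a T-box factor of forelimb and heart (71.2 against 10.2 CPM). In the positive pair they were Spry2, an inhibitor of receptor tyrosine kinase signalling (38.4 against 251 CPM), Psmd5 and Pik3r3 on the higher side. On the lower side they were Krt15, a keratin of stratified epithelium (397 against 11.3 CPM), Krtdap (53.5 against 3.23 CPM), Epyc and Ctse. Krt15 stood at 22.5 and 10.6 CPM in the negative pair, so its level in the explant positive library stood apart from the other 3. Without that library its fitted log2 fold change was 0.30, although the explant negative library stood above both cyclopamine libraries. The fraction term of that fit rests on the cyclopamine and fresh libraries, and fresh MC held Krt15 at 2.65 and 0 CPM.

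The cyclopamine effect in MC was not shown to differ from that in the other populations. In the fit of all 18 libraries, 0 of 16231 genes (0.0%) passed for the difference between MC and EC, with 164 at an unadjusted p under 0.05 and 6 called by DESeq2. For the difference between MC and HPSC, 0 (0.0%) passed, with 464 at an unadjusted p under 0.05 and 52 called by DESeq2. Both unadjusted counts, 164 and 464, were fewer than that cutoff would give with no effect. Among the 6 genes of lowest p for the difference from EC were Mogat2, Clec1a, Cd33, Gramd4 and Ppfia4, which stood at or below 0.301 CPM in both cyclopamine EC libraries, and Klhl4, which stood at 36.1 and 131 against 9.75 and 32.1 CPM in EC. Ppfia4 stood at 28.4 and 10.7 against 0 and 0.0753 CPM in EC and at 0.952 and 2.37 against 8.05 and 8.50 CPM in MC, on the scaling of all 18 libraries. The 6 for the difference from HPSC, which were Dnajb4, Lrrc17, Elavl2, Eri2, Fam35a and Zxdc, all stood at or below 2.37 CPM in both cyclopamine HPSC libraries. Lrrc17, a secreted leucine-rich protein, stood at 18.8 and 17.4 against 2.26 and 2.37 CPM in HPSC and at 371 and 534 against 350.03 and 447 CPM in MC. The cyclopamine EC and HPSC libraries had fewer genes with a count (11006, 14460, 10297 and 13169) than any of the cultured MC libraries, where the lowest had 16842. So had the negative explant libraries of EC (14010) and HPSC (14875), and the part of this was not tested. For the genes led with above, the fitted log2 effects of Hbb-y in that fit were -3.23 in MC, -6.63 in EC and -0.08 in HPSC, and those of Lect1 -2.02, -0.79 and -0.11. Pfn1 had 2.42, 0.57 and 0.51, and Ngfr 3.46, -0.47 and 4.21. For none of the 4 did a difference between populations pass the test.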

How the data were processed

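RNA was sequenced from MC, EC and HPSC of the AGM (18 libraries, 1 per population, culture and BRE-GFP fraction), prepared with a SMARTER kit per the labels' protocols. The deposited values are raw read counts per gene symbol (21881 symbols, whole numbers). TopHat, Cufflinks, HTSeq and the build mm10 are listed in the submitters' processing notes, and the sources used here do not give versions, annotation or strand setting. Rows without a gene (no feature, ambiguous and the like) were kept out of totals and tests, and reads at no feature came to 31.2 to 46.8% in the MC libraries. Libraries of the 4 MC cultures compared hold 14479053 to 21972063 gene counts.

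Groups and pairing by fraction come from the sample titles, and the labels carry no replicate numbers. MC genes that reached 0.641 CPM, which is 10 counts in a library of median size, in 2 or more of 6 libraries were tested with edgeR 4.0.16 (R 4.3.3): TMM scaling, quasi-likelihood test, fraction as block, Benjamini-Hochberg adjustment over all tested genes and a threshold of 0.05. Differences between populations came from 1 fit of the 18 libraries. DESeq2 1.42.0, limma-voom 3.58.1, RLE scaling, other filters, each library left out and the 4 cultured libraries alone were alternatives. The fit with an offset for transcript length (lowess, span 0.3, GENCODE M21 lengths, symbols matched) and the other tools on 4 libraries were added after the data were seen. Ratios within 1 fraction used CPM + 5. Promoters are from RefSeq, GRCm38.p6, and coordinates from GENCODE M21 on GRCm38.

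Genes were named by rule: the 12 of lowest p in each direction with at least 10 CPM and the same direction in both fractions, since none passed the threshold, up to 6 each way in each pair, 6 per difference between populations, and up to 5 members of lowest p and 3 of highest level per list. The values of 1 gene are not reported here. Other list members named as called were chosen after their values were seen. The comparison and all lists were chosen with earlier results of these data known.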

Additional observations from a re-analysis of the deposited data

Results flagged for a closer look

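For 4 of the genes named for MC, both fractions moved one way in MC and both moved the other way in HPSC. The values are differences between the populations in the mean log2 ratio of CPM + 5, MC minus HPSC, and in the fit of 18 libraries none of the 4 differences passed the test (edgeR adjusted p = 0.939 for each). Nid2, a basement membrane gene, differed by 2.62, with 67.8 and 226 CPM in explant and 27.5 and 105 CPM in cyclopamine HPSC. Smo differed by 2.17, with 12.2 and 18.5 CPM in explant HPSC and 0 and 1.37 CPM in cyclopamine HPSC. The other two were lower in MC and higher in HPSC. Chad differed by -2.10, with 60.1 and 13.4 against 75.8 and 18.1 CPM in HPSC. Mia1 differed by -2.86, with 0.238 and 1.47 against 32.8 and 2.37 CPM in HPSC. Smo was not called in MC either. No group holds 4 libraries, so single libraries were not tested for standing apart.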

How the results depend on the processing

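The count of 0 genes in the 6 MC libraries depended on which libraries entered the fit. With the 4 cultured libraries alone it was 1241 by edgeR, 1062 with RLE scaling (675 higher and 387 lower), 879 by DESeq2 (495 and 384), 1526 by limma-voom and 207 with the length offset, and with all 6 libraries it was 11 by DESeq2. Of the 1241, 805 were also called by DESeq2 on the 4 libraries. Leaving out 1 library gave 0 to 1696 genes, the highest without the fresh positive library. A fit without 1 of the fresh libraries takes its residual from the 4 cultured libraries, as said above. The fit of culture alone, without fraction as a block, gave 0 genes. So did all 18 libraries in 1 fit, RLE scaling, limma-voom, no filter, a minimum of 50 counts and the length offset on 6 libraries. For MC against EC, DESeq2 gave 6 genes and leaving out 1 library 0 to 119, the highest without the positive cyclopamine EC library. For MC against HPSC, DESeq2 gave 52 genes and leaving out 1 library 0 to 394, the highest without the positive cyclopamine HPSC library. The cause was not tested. Of 779 values of 41 named MC genes under the alternatives, 774 kept their direction, which was in part fixed by how the genes were chosen, and 271 passed the threshold. Leaving out 1 library gave log2 fold changes of -5.71 to 0.30 for Krt15, -3.62 to 0.56 for Hhip, -0.90 to 1.52 for Ptch1 and -0.16 to 0.99 for Smo. There were 5 reversals. Without the explant positive library they were Krt15 (0.30) and Hhip (0.56), and without the cyclopamine positive library Ptch1 (-0.90) and Smo (-0.16). With the length offset on 4 libraries it was Ptch1 (-0.17). Without 1 cultured library, the fraction term rests on the other cultures, fresh MC included. For Krt15 and Hhip, the explant negative library stood above both cyclopamine libraries. For Smo, the cyclopamine negative library stood above both explant libraries. Of 44 list medians, 7 changed sign with RLE scaling, 7 with the length offset, 7 in the negative and 3 in the positive pair. At the depth of the 4 cultured libraries, 3 counts correspond to 0.143 to 0.205 CPM.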
